A study of Mus musculus with 4 samples.

Results

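Dlx1, Dlx2, Dlx3, Dlx5 and Dlx6 are 5 of the mouse distal-less homeobox genes, and they were followed here by symbol through single-cell RNA sequencing of E10.5 mouse embryo heads. They are 5 of the 20719 genes listed in at least 1 library, and each of them was listed in all 4 libraries. The libraries form 2 groups, 2 labelled Apcdd1+/- (heterozygous for Apcdd1, which encodes a membrane-bound inhibitor of Wnt signalling) and 2 labelled WT, all of the same age and tissue and with no other allele or treatment in the labels. After a night in preservation solution, the heads were digested with enzymes and the cells were sorted with DAPI to remove dead cells before droplet capture. The sources used here do not say how many embryos or litters went into a library, and p-values therefore measure the spread between libraries, which may be technical.

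Dlx proteins are homeodomain transcription factors, and most of the genes lie in convergently transcribed pairs whose members share enhancers. In the mouse pharyngeal arches they are known for a nested pattern in cranial neural crest mesenchyme, with Dlx1 and Dlx2 over most of an arch, Dlx5 and Dlx6 further from the brain and Dlx3 nearest the tip. In the mouse forebrain Dlx1 and Dlx2 are known from ventral telencephalic and prethalamic progenitors, with Dlx5 and Dlx6 following as these cells become GABAergic neurons. Dlx3, Dlx5 and Dlx6 are also known from the surface ectoderm and the sensory placodes.

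The 4 libraries held 3122 to 9735 cell barcodes and 55393605 to 96822641 UMIs, of which 24259 cells with at least 500 genes and under 10% mitochondrial UMIs were kept, at a median of 8934.5 to 17133.5 UMIs per cell. Apcdd1 itself did not separate the genotypes: over all kept cells the Apcdd1+/- labelled pair stood at 77.4 and 49.5 CPM (the gene's UMIs scaled by the library's total) and the WT pair at 63.4 and 60.8 CPM, a log2 difference of 0.08 (95% interval -0.45 to 0.61, edgeR), so the genotype is given below as labelled. The Apcdd1+/- labelled replicate 1 library also stood apart in Hoxa2, a gene of the hindbrain and of the second arch, with 17 UMIs over its kept cells, against 294 in the Apcdd1+/- labelled replicate 2 library and 250 and 240 in WT libraries; results that rest on this library are given with and without it. Between 6 and 25 bead barcodes were shared by any pair of libraries.

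Cells were sorted into groups by marker genes that include no Dlx gene. Arch mesenchyme was mesenchyme with at least 1 UMI of Hand2, Barx1, Lhx6, Lhx8, Gsc, Pou3f3, Hoxa2 or Hoxb2 and none of the frontonasal markers, such as Alx1 and Alx4, and it held 98 and 66 cells in Apcdd1+/- labelled libraries, against 66 and 30 in WT libraries. Neurons were 342, 323, 352 and 156 cells in the Apcdd1+/- labelled replicates 1 and 2 and WT replicates 1 and 2. Epithelium was 215, 107, 130 and 96 cells in the same order, and subpallium (telencephalic neural progenitors with Gsx1, Gsx2 or Nkx2-1) was 171, 80, 121 and 56 cells. Of the markers that define the arch, Barx1 carried most of the gate, with UMIs in 82, 51, 52 and 25 of those arch cells, while Hand2, a marker of the arch tip, had 0 UMIs in the gate of every library and Hoxa2 had 1. The arch cells studied here are therefore Barx1-, Lhx6-, Lhx8- and Pou3f3-type mesenchyme, and the Hand2-positive arch tip could not be examined.

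Dlx1 (chr2:71528113-71533981, plus strand) and Dlx2 (chr2:71543408-71546754, minus strand) face each other across 9426 bases in mm10. Dlx6 (chr6:6863334-6868568, plus strand) and Dlx5 (chr6:6877805-6882085, minus strand) do so across 9236 bases, and Dlx3 (chr11:95120119-95125296, plus strand) is paired with Dlx4 across 15150 bases. Dlx1 and Dlx6 are overlapped on the other strand by the antisense genes Dlx1as and Dlx6os1. The sources used here do not say whether the authors' counting used strand, and reads of these genes and of their antisense partners cannot be told apart. Dlx4 had 16 and 10 UMIs over all kept cells of Apcdd1+/- labelled libraries, against 6 and 5 in WT libraries. The 250 bases before the starts of Dlx1 and Dlx2 are shown because promoters were at hand for only these 2 of the 5 members. RefSeq's table for GRCm38.p6 gives them at chr2:71529195-71529444 on the plus strand for Dlx1, which lies inside the gene's span above, and at chr2:71546755-71547004 on the minus strand for Dlx2. Capitals mark CACGTG and ATTGG (the inverse of CCAAT), which were found in Dlx2 and not in Dlx1.
Dlx1: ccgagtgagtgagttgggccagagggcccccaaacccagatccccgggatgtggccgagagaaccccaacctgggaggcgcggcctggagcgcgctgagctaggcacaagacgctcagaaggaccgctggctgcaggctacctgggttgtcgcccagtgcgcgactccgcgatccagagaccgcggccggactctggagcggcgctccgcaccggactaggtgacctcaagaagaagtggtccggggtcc
Dlx2: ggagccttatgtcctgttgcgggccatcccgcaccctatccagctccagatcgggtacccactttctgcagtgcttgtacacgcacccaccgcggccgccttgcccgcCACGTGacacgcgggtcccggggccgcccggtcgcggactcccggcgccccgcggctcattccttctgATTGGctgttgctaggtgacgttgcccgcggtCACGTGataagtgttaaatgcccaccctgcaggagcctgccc
The Dlx2 stretch holds 2 matches to CACGTG, a palindrome found in 6.02% of 32851 mouse promoters of this length, and 1 to CCAAT or its inverse, found in 33.8% of them. The Dlx1 stretch holds 0 matches to either. Neither stretch holds a match to the homeobox core TAATTA, found in 4.84%. GC content is 68% in the Dlx1 stretch and 66.4% in the Dlx2 stretch, against a median of 52.4% over those promoters.

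Levels below are UMIs per 10000 UMIs of a cell, averaged over the cells of a group in each library, and then given as mean ± SD over the 4 libraries. No erythroid cell held a UMI of any of the 5 genes: 0 of 128 cells, which allows a share of cells with a UMI of up to 2.34% and sets no limit on cells that express the genes, at median depths of 16618 and 15357 UMIs in Apcdd1+/- labelled libraries and 27644 and 29011 in WT libraries. Intervals and floors cover counting error only.

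Across 19 groups of cells that do not overlap, the 5 genes filled 3 kinds of place. Dlx1 had 2820 UMIs in all kept cells, and its largest shares lay in cells with progenitor and neuron markers together (25.9%), arch mesenchyme (19.6%) and neurons (11.3%). Dlx2 had 706 UMIs, with 21.7% in arch mesenchyme, 13.5% in cells with progenitor and neuron markers together and 11.8% in epithelium. Dlx3 had 206 UMIs, and 57.3% of them lay in epithelium and another 24.8% in cells with epithelium and progenitor markers together. Those same double-marked epithelial cells held 30.8% of Dlx5 UMIs and 44.3% of Dlx6 UMIs, while arch mesenchyme held 4.4% of Dlx5 UMIs.

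**Figure D1:**
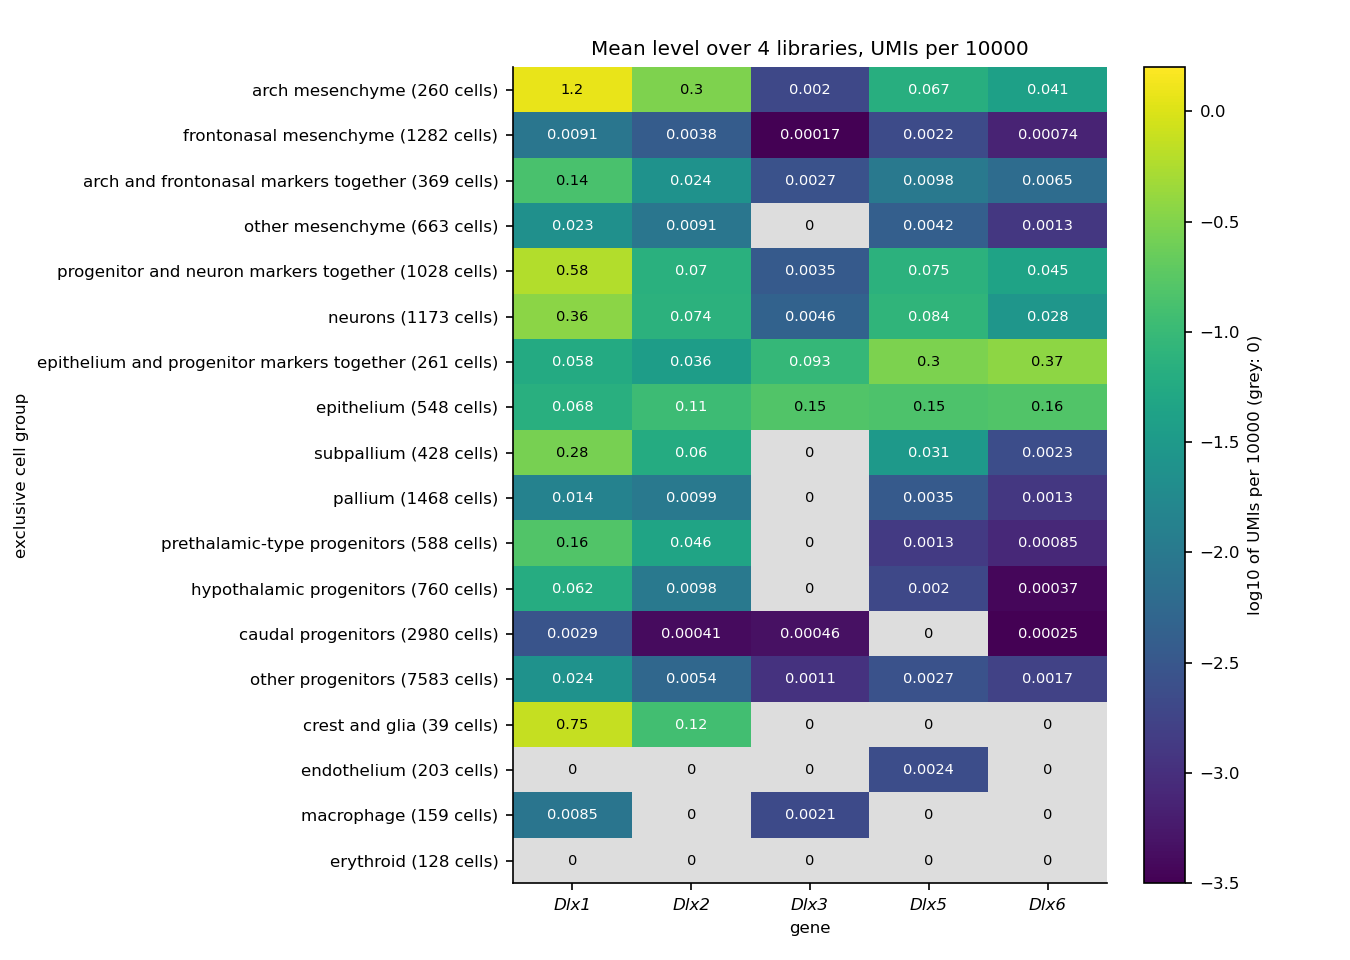
Mean level of each Dlx gene (UMIs per 10000, mean of 4 libraries, colour on a log scale) in 18 of the 19 non-overlapping groups of cells, groups down the page and genes across it. Dlx1 and Dlx2 are highest in arch mesenchyme, Dlx3 in epithelium, and Dlx5 and Dlx6 in cells with epithelium and progenitor markers together; erythroid cells are at 0 for all 5.

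Of arch mesenchyme, neurons, epithelium and subpallium, Dlx1 had its highest level in arch mesenchyme. Its level there was 1.05 and 1.15 per 10000 in Apcdd1+/- labelled libraries and 1.31 and 1.19 in WT libraries, a mean of 1.18 ± 0.107 (SD, n = 4 libraries). In neurons Dlx1 had 0.449 and 0.534 in Apcdd1+/- labelled libraries and 0.384 and 0.0903 in WT libraries, with a mean of 0.364 ± 0.193. In epithelium it had a mean of 0.0679 ± 0.0363, and in subpallium 0.280 ± 0.267. Every arch value lay above every value of the other 3 groups, although the GABAergic subset of neurons, described further on, averaged 2.39 ± 1.33, and the neuron, epithelium and subpallium values overlapped, with WT replicate 2 lowest among neurons. Of arch cells 65.8% held a Dlx1 UMI (Wilson 95% interval 59.8 to 71.3%), and 32.3 to 40.0% did so in the libraries after thinning to 4000 UMIs per cell.

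Dlx2 was likewise highest in arch mesenchyme among these 4 groups, with GABAergic neurons at 0.447 ± 0.345. Its arch level was 0.417 and 0.2396 in Apcdd1+/- labelled libraries and 0.376 and 0.184 in WT libraries (mean 0.304 ± 0.110, SD, n = 4 libraries). Neurons had a mean of 0.0744 ± 0.0711, epithelium 0.108 ± 0.0212 and subpallium 0.0601 ± 0.0432. Only 1 neuron value, 0.177 in the Apcdd1+/- labelled replicate 1 library, came near the lowest arch value.

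Dlx3 was an epithelial gene in these heads. In arch mesenchyme it had 1 UMI in 260 cells, and in neurons 9 UMIs in 1173 cells. In epithelium its level was 0.207 and 0.123 in Apcdd1+/- labelled libraries and 0.186 and 0.102 in WT libraries (mean 0.154 ± 0.0499, SD, n = 4 libraries), and in subpallium it had 0 UMIs in 428 cells. The epithelial values lay above those of the other 3 groups in every library. Of epithelial cells 13.3% held a Dlx3 UMI, and 3.00 to 8.94% did so in the libraries after thinning.

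Dlx5 and Dlx6 had their highest level of these 4 groups in epithelium. Dlx5 had 0.0671 ± 0.0670 in arch mesenchyme, 0.0836 ± 0.0624 in neurons, 0.146 ± 0.0270 in epithelium and 0.0306 ± 0.0382 in subpallium (SD, n = 4 libraries). Dlx6 had 0.0407 ± 0.0417 in arch mesenchyme, 0.0277 ± 0.0280 in neurons, 0.155 ± 0.0305 in epithelium and 0.00234 ± 0.00469 in subpallium, where 1 UMI was counted in all. Arch values of both genes spread widely: Dlx5 had 0.00832 and 0.0191 in Apcdd1+/- labelled libraries and 0.0888 and 0.152 in WT libraries, so that the arch values overlapped the epithelial ones in Dlx5, whereas the highest Dlx6 value of the arch, 0.0986 in WT replicate 2, lay below the lowest epithelial one, 0.1199.

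**Figure D2:**
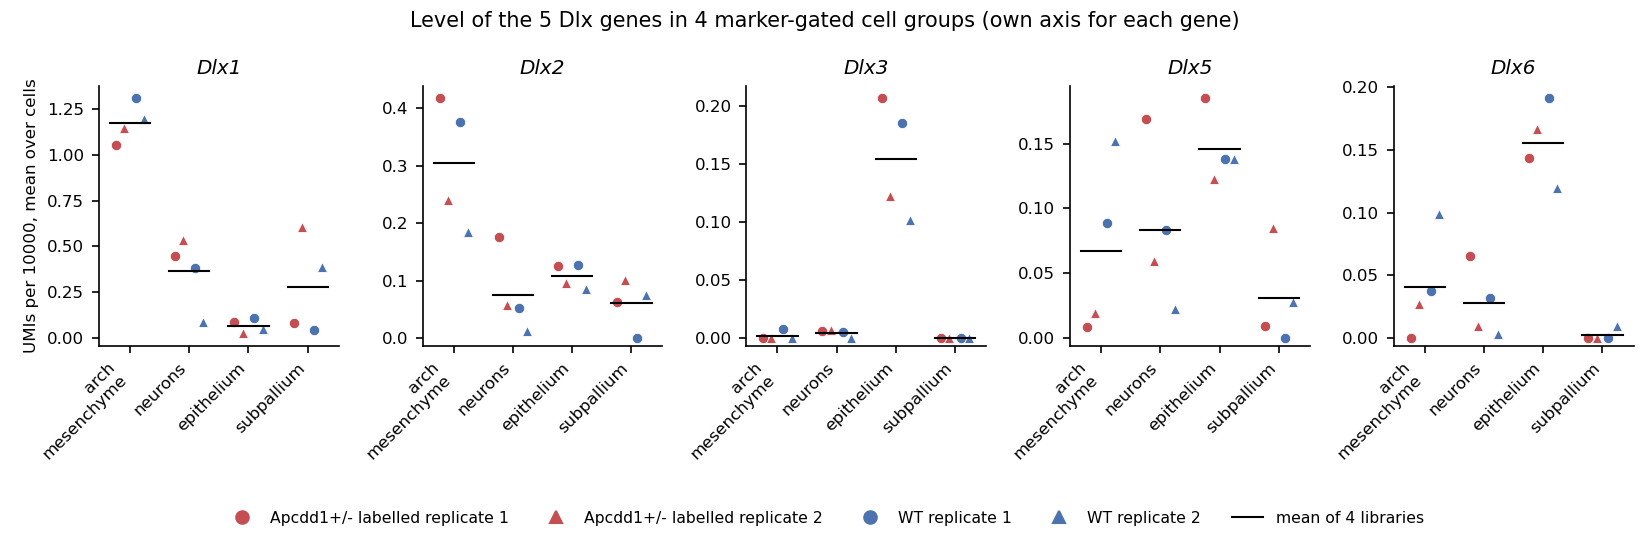
Level of each Dlx gene (UMIs per 10000) in arch mesenchyme, neurons, epithelium and subpallium; points are the 4 libraries, coloured by labelled genotype, lines are their means, and each gene has its own axis. Dlx1 and Dlx2 stand highest in arch mesenchyme, with means of 1.18 and 0.304, and Dlx3 is near 0 outside epithelium.

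The 4 groups were compared in 1 fit of edgeR's quasi-likelihood test on UMI counts summed per library and group, with the library as a block and p-values adjusted over 11067 genes. The filter on low counts was applied over the 4 groups together, so a gene could be tested in a pair after passing through another group. In the fits of 2 groups further on, a gene could likewise pass through only the group where it is high. Its p-value is then no separate support. Fits with no filter gave far lower adjusted p at a like log2, for Dlx1 in arch mesenchyme against subpallium 2.39e-54 against 1.16e-07 (edgeR). An adjusted p from a fit with no filter is therefore given as a description. Of the 5 members, 4 were higher in arch mesenchyme than in subpallium and 0 were lower, where 15.9% of all genes were higher. Dlx1 was 2.94 higher on the log2 scale (SE 0.36, adjusted p = 1.16e-07, edgeR), with more in 4 of 4 libraries, and Dlx2 3.07 higher (SE 0.43, adjusted p = 8.85e-07, edgeR). Dlx5 and Dlx6 passed by little, with adjusted p of 0.0477 and 0.0243 (edgeR), on 25 against 8 and 13 against 1 UMIs. Both were below the filter in the genotype fits of arch mesenchyme alone and of subpallium alone. The Dlx5 call was lost without Apcdd1+/- labelled replicate 1 or either WT library (adjusted p 0.0502, 0.341 and 0.0860) and without the library block (0.0681), and that of Dlx6 without Apcdd1+/- labelled replicate 2 or WT replicate 1 (0.0756 and 0.129). Against neurons, where 64.7% of all genes were called, 30.5% higher and 34.2% lower in arch mesenchyme, Dlx1 (log2 2.33, SE 0.30) and Dlx2 (log2 2.83, SE 0.36) were the 2 members called, with adjusted p of 5.61e-08 and 3.25e-08 (edgeR). Dlx5 and Dlx6 did not differ beyond their spread there, at log2 0.15 (95% interval -0.98 to 1.27) and 0.33 (-1.10 to 1.76).

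Against epithelium, 43.2% of all genes differed in arch mesenchyme, 20.1% higher and 23.1% lower, and 2 members were higher and 2 lower in the arch. Dlx1 (log2 4.19, SE 0.40) and Dlx2 (log2 1.64, SE 0.34) were higher, while Dlx3 (1 against 118 UMIs, log2 -5.75, 95% interval -7.27 to -4.24) and Dlx6 (log2 -2.06, SE 0.58, adjusted p = 0.00465, edgeR) were lower. Dlx5 lay at log2 -1.21 with adjusted p = 0.0561 (edgeR), and passed when genes of low count were kept, when 1 more lineage marker was required, when WT replicate 2 was left out, or when epithelium with progenitor markers was let in.

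Neurons differed from epithelium in 61.5% of all genes, 29.8% higher and 31.8% lower, and all 5 members were among them. Dlx1 was higher in neurons (log2 1.86, SE 0.45, adjusted p = 0.000565, edgeR), while Dlx2, Dlx3, Dlx5 and Dlx6 were lower, by log2 values of -1.19 to -4.26. The Dlx2 call was lost when epithelium with progenitor markers was let in (adjusted p = 0.138), and the Dlx5 call under DESeq2 (0.0607). In epithelium against subpallium, where 20.4% of all genes were higher, Dlx2, Dlx3, Dlx5 and Dlx6 were higher in epithelium. Dlx5 was 3.24 (SE 0.64) higher on the log2 scale and Dlx6, with 95 UMIs against 1, 5.80 higher (95% interval 3.95 to 7.64). Dlx3, with 118 UMIs against 0, was at least 31.6-fold higher in epithelium, taking 3 UMIs over the group as the floor. The Dlx2 call was lost without Apcdd1+/- labelled replicate 1 (adjusted p = 0.0589) or WT replicate 1 (0.195), without the library block (0.0574) and with epithelium that has progenitor markers let in (0.140). Dlx1 lay at log2 -1.25 with adjusted p = 0.0625 (edgeR). It was called lower in epithelium when genes of low count were kept (adjusted p = 4.36e-05), with 1 more lineage marker (0.00322), with progenitor markers allowed (0.0335), without Apcdd1+/- labelled replicate 1 (log2 -1.68, 0.0341) and without WT replicate 1 (log2 -1.85, 0.0162).

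Between neurons and subpallium, the forebrain end of the comparison, neither Dlx1 nor Dlx2 was called. Dlx1 differed by log2 0.61 (95% interval -0.21 to 1.42, adjusted p = 0.192, edgeR) and passed, at log2 1.44, without WT replicate 2 (6.73e-05), at 0.63 when genes of low count were kept (0.00654) and at 0.67 with 1 more lineage marker (0.0417). Dlx2 differed by log2 0.24 (-0.79 to 1.27). Of all genes 59.6% were called, 31.2% higher and 28.4% lower in neurons, and Dlx3, Dlx5 and Dlx6 were called higher, on 9 against 0, 66 against 8 and 30 against 1 UMIs. Without Apcdd1+/- labelled replicate 1 the adjusted p were 0.133, 0.345 and 0.152, and without WT replicate 1 they were 0.110, 0.103 and 0.088, so none of these 3 calls held without either library; that of Dlx3 was also lost without Apcdd1+/- labelled replicate 2 (0.0816) and under DESeq2 (0.0903). In the genotype fit of neurons alone, Dlx3 and Dlx6 were below the filter that is here shared by the 4 groups.

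Within head mesenchyme, Dlx1 and Dlx2 were arch genes. Arch cells had 552 Dlx1 UMIs in 260 cells and frontonasal cells 17 in 1282, at 125 ± 13.6 against 0.779 ± 0.206 CPM of the summed counts (SD, n = 4 libraries), a log2 difference of 7.25 (SE 0.21, adjusted p = 4.95e-37, edgeR). Dlx2 had 153 UMIs in arch and 11 in frontonasal cells, a log2 difference of 6.06 (SE 0.38, adjusted p = 2.46e-20, edgeR). Both genes were higher in 4 of 4 libraries, where 5.33% of all genes were called higher in arch cells. They passed the filter on low counts through the arch cells. Dlx3, Dlx5 and Dlx6 were below that filter, with 1, 25 and 13 UMIs in arch cells against 1, 4 and 2 in frontonasal cells. With no filter Dlx5 and Dlx6 had adjusted p of 1.72e-05 and 0.00929 (edgeR). That fit gave Dlx1 an adjusted p of 4.75e-235 (edgeR), so these values are descriptions. Cells with arch and frontonasal markers together had a Dlx1 level of 0.137 ± 0.0746.

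Of the 32 listed arch patterning genes, 17 that do not define these gates were tested. Of these, 5 were higher and 12 lower in arch cells, with a median log2 difference of -0.80 against 0.01 over all genes. Meis2, a TALE homeobox gene, was higher in arch cells (log2 2.28, at 186 against 40.5 CPM), as were Mef2c (1.71) and the nuclear receptor Nr2f1 (0.48). Lower in arch cells were the signal genes Bmp7 (log2 -3.65) and Bmp4 (-2.03) and the homeobox genes Shox2 (-3.38) and Six2 (-2.54).

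Inside the arch gate, Dlx5 UMIs were found only among cells with a UMI of Pou3f3, a POU factor of the proximal arch. Pou3f3 also admits a cell to the gate. A Pou3f3-positive cell therefore needed no other arch marker, while a Pou3f3-negative cell did. The split thus compares cells admitted in different ways, and not simply proximal with other arch. The 104 Pou3f3-positive cells held 25 Dlx5 UMIs and the 156 Pou3f3-negative cells 0, which is at least 9.79-fold higher with 3 UMIs over the group as the floor. By library the Dlx5 UMIs of Pou3f3-positive cells were 2 and 3 in Apcdd1+/- labelled libraries and 10 and 10 in WT libraries. Dlx6 had 12 UMIs in Pou3f3-positive and 1 in Pou3f3-negative cells. Dlx1 had 330 against 222 UMIs (log2 0.73, SE 0.17, adjusted p = 0.0172, edgeR, higher in 4 of 4 libraries), where 2.01% of all genes were called and 0.607% were higher. That Dlx1 call was lost without Apcdd1+/- labelled replicate 2 (adjusted p = 0.256), without WT replicate 1 (0.148), with 1 more lineage marker (0.0578) and without the library block (0.0930). Dlx2 did not differ beyond its spread (log2 0.30, 95% interval -0.26 to 0.86).

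Pou3f3-positive cells had more Nr2f2 (log2 1.12) and Nr2f1 (1.11) and less Msx1 (-1.58), a homeobox target of BMP signals; these are the 3 of 7 tested arch patterning genes that were called, and the median of the 7 was 0.47 against -0.00 over all genes. Median depth was 17124 and 16926 UMIs in Pou3f3-positive against 12766 and 12300 in Pou3f3-negative cells of Apcdd1+/- labelled libraries, and 18602 and 25308.5 against 19556 and 23285 in those of WT libraries; the part of depth was not tested. Pou3f3-positive cells made up 33.7 and 28.8% of arch cells in Apcdd1+/- labelled libraries, against 48.5 and 66.7% in WT libraries.

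In telencephalic progenitors Dlx1 marked the ventral side, but in few cells. Subpallial cells had 16 and 31 Dlx1 UMIs in Apcdd1+/- labelled libraries, in 7 and 6 cells, and 6 and 39 in WT libraries, in 3 and 4 cells. The top cell alone held 31 to 62% of these UMIs in each library, and the share of cells with a UMI was 4.67% over all 4. Against pallium, which had 20 Dlx1 UMIs in 1468 cells, the log2 difference was 4.09 (SE 0.43, adjusted p = 2.11e-10, edgeR, higher in 4 of 4 libraries), where 5.16% of all genes were called higher and 4.24% lower (9.41% in all). Dlx2, below the filter, had 24 UMIs in subpallium and 21 in pallium. With no filter its adjusted p was 0.033 (edgeR), which is a description. Dlx5 had 8 against 6 UMIs, Dlx6 1 against 3, and Dlx3 0 in both.

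Of 22 tested subpallial and GABAergic genes, 9 were higher and 7 lower in subpallium than in pallium, with a median of 0.34 against -0.00 over all genes. Higher were Olig2, a bHLH factor of ventral progenitors (log2 4.10, 89.7 against 5.10 CPM), the LIM factor Isl1 (3.88) and Vax1 (2.92). Lower were the dorsal genes Neurog2 (-2.90) and Pax6 (-2.38), and also Sp8 (-1.81). Nkx2-1-positive cells made up 94.2 and 85.0% of subpallial cells in Apcdd1+/- labelled libraries and 89.3% in each WT library. Nkx2-1-negative cells had 17 Dlx1 UMIs and Nkx2-1-positive cells 75, at 28.2 ± 26.8 against 19.8 ± 17.7 CPM, and the difference of log2 0.58 (95% interval -0.56 to 1.72) was not called, in a comparison where 0.972% of all genes were, 0.292% higher and 0.681% lower.

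Prethalamic-type progenitors (Olig2- and Nr2e1-positive, Nkx2-1-negative and outside the telencephalic groups) also carried Dlx1 and Dlx2. Their Dlx1 level was 0.236 and 0.157 in Apcdd1+/- labelled libraries and 0.0491 and 0.195 in WT libraries. They held 123 Dlx1 UMIs in 588 cells, against 7 in 2980 caudal progenitors with En1, En2, Hoxa2 or Hoxb2 (log2 6.09, SE 0.45, adjusted p = 9.47e-12, edgeR, where 6.37% of all genes were higher). Dlx1 passed the filter on low counts through the prethalamic-type cells. Dlx2, below the filter, had 35 against 2 UMIs. Its adjusted p of 6.13e-09 when no filter was set (edgeR) is a description. Dlx3, Dlx5 and Dlx6 had at most 2 UMIs in either group. Of 23 tested genes of the subpallial and GABAergic list, 10 were higher and 10 lower in prethalamic-type cells (median -0.16 against 0.00 over all genes), with Six3 (log2 5.54), Emx2 (4.86) and Gsx2 (3.61 against 0.0547 CPM) among the higher ones and Sp8 (-4.91), Sp9 (-2.46), Meis2 (-1.96) and Bcl11b (-1.72) among the lower ones.

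Cells with progenitor and neuron markers together, 1028 in all, had a Dlx1 level of 0.485 and 0.8004 in Apcdd1+/- labelled libraries and 0.457 and 0.595 in WT libraries. Against subpallium they had 730 and 92 Dlx1 UMIs, a log2 difference of 1.34 (SE 0.20, adjusted p = 1.13e-08, edgeR, higher in 4 of 4 libraries), where 16.2% of all genes were higher, while Dlx2 was not called (log2 0.42, 95% interval -0.41 to 1.25). In WT replicate 2 the top cell held 103 of 256 Dlx1 UMIs. Dlx5 and Dlx6, below the filter, had 92 against 8 and 45 against 1 UMIs. Of 29 tested genes of the subpallial and GABAergic list, 21 were higher and 4 lower (median 1.13 against -0.00); Gad1, an enzyme of GABA synthesis, stood at 8.35 against 0 CPM and Eomes, a factor of glutamatergic precursors, at 34.5 against 0 CPM, and Slc32a1, the vesicular GABA transporter, at 12.3 against 0.138 CPM. Ebf1 (log2 5.38) was also higher, and Olig2 (-1.90), Six3 (-1.53), Hes5 (-0.71) and Otx2 (-0.50) lower. No doublet caller was run, and the part of doublets in cells with markers of 2 lineages was not tested.

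Among neurons, Dlx1 went with GABAergic cells, which held 245 of its 319 neuronal UMIs. Neurons with Gad1, Gad2 or Slc32a1 and no Slc17a6 numbered 45 and 41 in Apcdd1+/- labelled libraries and 37 and 12 in WT libraries, and their Dlx1 level was 2.86 and 3.92 in Apcdd1+/- labelled libraries and 1.96 and 0.793 in WT libraries. Glutamatergic neurons, with Slc17a6 and none of the GABA genes, had 3 Dlx1 UMIs in 325 cells. The log2 difference was 7.86 (95% interval 7.03 to 8.70, adjusted p = 3.69e-11, edgeR, higher in 4 of 4 libraries), where 3.80% of all genes were called higher and 6.20% lower. Dlx1 passed the filter on low counts through the GABAergic cells. The share of cells with a Dlx1 UMI was 35.6% in GABAergic neurons and 0.615% in glutamatergic ones, although GABAergic cells were the shallower, with medians of 5569 to 11710 UMIs against 9328 to 17579.5.

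Dlx2 and Dlx5 had the same direction below the filter on low counts. Dlx2 had 43 UMIs in GABAergic and 1 in glutamatergic neurons, and Dlx5 48 and 7. Both were higher in 4 of 4 libraries. Their adjusted p of 1.16e-12 and 1.98e-11 when no filter was set (edgeR) are descriptions. That fit gave Dlx1 an adjusted p of 1.84e-83 (edgeR). Dlx6 had 9 UMIs in each, from 135 GABAergic and 325 glutamatergic cells. Its level was 0.188 and 0.0242 in GABAergic against 0.0567 and 0 in glutamatergic neurons of Apcdd1+/- labelled libraries, and 0.114 and 0 against 0.0136 and 0 in those of WT libraries; with no filter its log2 difference was 1.74 (adjusted p = 0.631, edgeR). Dlx3 had 0 and 5 UMIs. Of 17 tested genes of the subpallial and GABAergic list, 8 were higher and 4 lower in GABAergic neurons (median 0.48 against 0.03 over all genes). Sp8 (30.4 against 0.292 CPM), Six3 (log2 4.04) and Pax6 (2.29) were higher, Isl1 (-1.50), Ebf1 (-1.49) and Zfp503 (-1.03) lower, and Eomes was at 0 against 123 CPM.

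**Figure D3:**
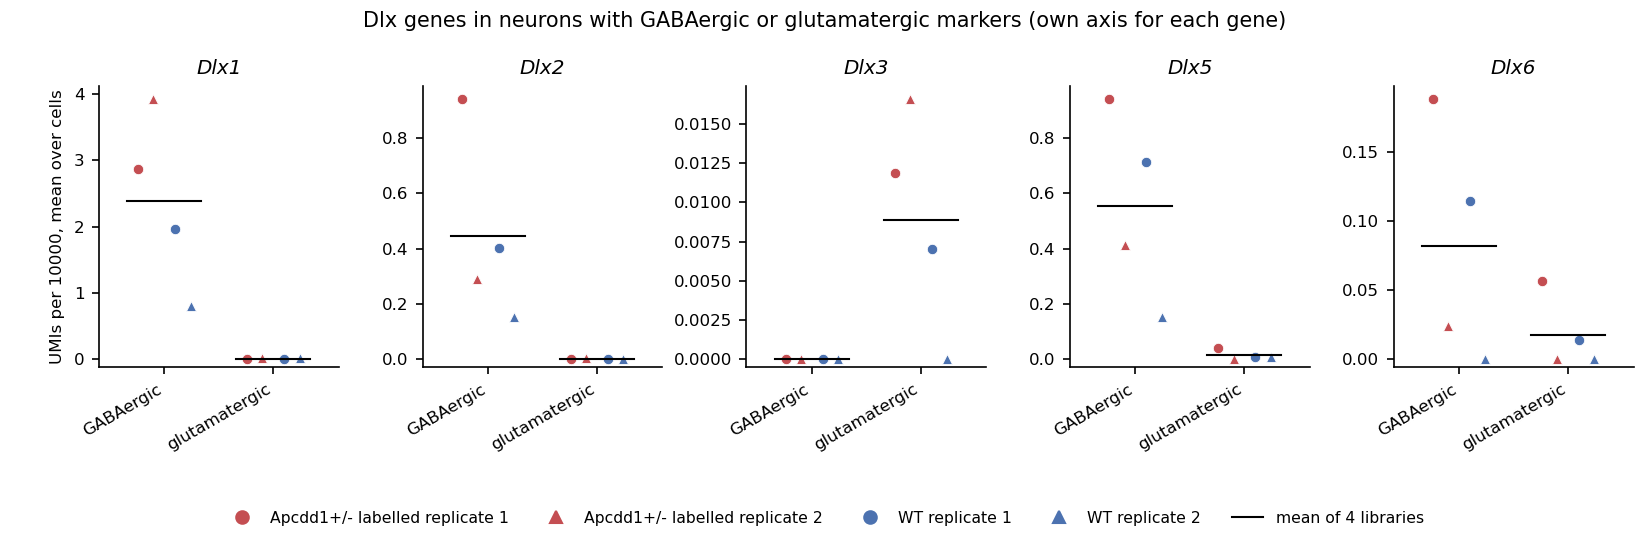
Level of each Dlx gene (UMIs per 10000) in GABAergic and glutamatergic neurons; points are the 4 libraries, coloured by labelled genotype, lines are their means, and each gene has its own axis. Dlx1 lies between 0.793 and 3.92 in GABAergic neurons and at or below 0.0139 in glutamatergic neurons.

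A small group of Sox10-type crest and glia cells, 39 in all, also held Dlx1. Its level there was 1.23 and 0.526 in Apcdd1+/- labelled libraries and 0.499 and 0.732 in WT libraries, with a UMI in 15 of 39 cells. These levels rest on 8 and 14 cells in Apcdd1+/- labelled libraries and on 14 and 3 in WT libraries. Dlx2 had a UMI in 4 of them, and Dlx3, Dlx5 and Dlx6 in 0.

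In epithelium Dlx3 and Dlx6 leaned to opposite sides of the Trp63 divide, although neither difference passed the adjusted threshold in the planned fit. Trp63 encodes p63, a transcription factor of stratified surface ectoderm, and 265 of 548 epithelial cells held a UMI of it. Dlx3 had a level of 0.271 and 0.163 in Trp63-positive cells of Apcdd1+/- labelled libraries and 0.272 and 0.143 in those of WT libraries, against 0.156 and 0.0834 in Trp63-negative cells of Apcdd1+/- labelled libraries and 0.0946 and 0.0581 in those of WT libraries. Dlx6 had 0.0822 ± 0.0426 in Trp63-positive and 0.227 ± 0.0318 in Trp63-negative cells (SD, n = 4 libraries). Each library had more Dlx3 and less Dlx6 in Trp63-positive cells, but the log2 differences of 1.13 (SE 0.34) and -1.20 (SE 0.37) did not pass the threshold, with adjusted p of 0.0618 and 0.0635 (edgeR) in a comparison where 3.62% of all genes did, 1.71% higher and 1.91% lower. With no filter on low counts they passed, at 0.0445 and 0.0346, and Dlx3 also did with 1 more lineage marker (0.0451). Dlx5 differed by log2 -0.53 (95% interval -1.25 to 0.19), and Trp63-positive cells were the deeper, at medians of 11313 and 11836 against 7981.5 and 8482 UMIs in Apcdd1+/- labelled libraries and 12044 and 20126.5 against 10062 and 10269 in WT libraries; the part of depth was not tested.

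Of 20 tested ectoderm and placode genes, 3 were higher and 6 lower in Trp63-positive cells (median -0.00 against -0.01 over all genes). Higher were the AP-2 factors Tfap2b (log2 1.13) and Tfap2a (0.81) and Wnt6 (0.94). Lower were the placode gene Eya1 (-1.34), Foxe1 (-2.01), a factor of oral and pharyngeal epithelium, and Sox2 (-1.16).

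Of the 19 groups, Dlx5 and Dlx6 were highest in the 261 cells with epithelium and progenitor markers together. Dlx5 had a level of 0.392 and 0.174 there in Apcdd1+/- labelled libraries and 0.331 and 0.290 in WT libraries, and Dlx6 had 0.496 and 0.271 in Apcdd1+/- labelled libraries and 0.348 and 0.382 in WT libraries. Against epithelium without progenitor markers, where 16.4% of all genes differed, Dlx5 was 1.07 (SE 0.21, adjusted p = 0.000290) and Dlx6 1.45 (SE 0.21, adjusted p = 2.38e-06) higher on the log2 scale (edgeR), each in 4 of 4 libraries. Dlx2 was lower (log2 -1.71, SE 0.40, adjusted p = 0.00190), as was Dlx3 (log2 -0.84, SE 0.29, adjusted p = 0.0406, edgeR), but without Apcdd1+/- labelled replicate 1 the adjusted p of Dlx2 was 0.0806 and that of Dlx3 0.338, DESeq2 called neither (0.0780 and 0.467), and Dlx3 was also lost without WT replicate 1 (0.249) and without the library block (0.119). Dlx1, below the filter, had 33 against 51 UMIs.

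These double-marked cells had more of the placode genes Eya1 (log2 1.11) and Eya2 (0.64). They had less Tfap2b (-2.01), Wnt6 (-2.002), Trp63 (-1.46) and the basal keratin Krt14 (-1.34). Of 20 tested ectoderm and placode genes, 3 were higher and 12 lower, with a median of -0.64 against 0.01 over all genes. Of the cells 40.2% held a Dlx5 UMI and 39.8% a Dlx6 UMI, and after thinning 8.57 to 14.8% and 5.71 to 16.3% did so in the libraries. They were also the deeper cells, at medians of 15596 to 29422 UMIs against 9984 to 15874 in other epithelium.

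**Figure D4:**
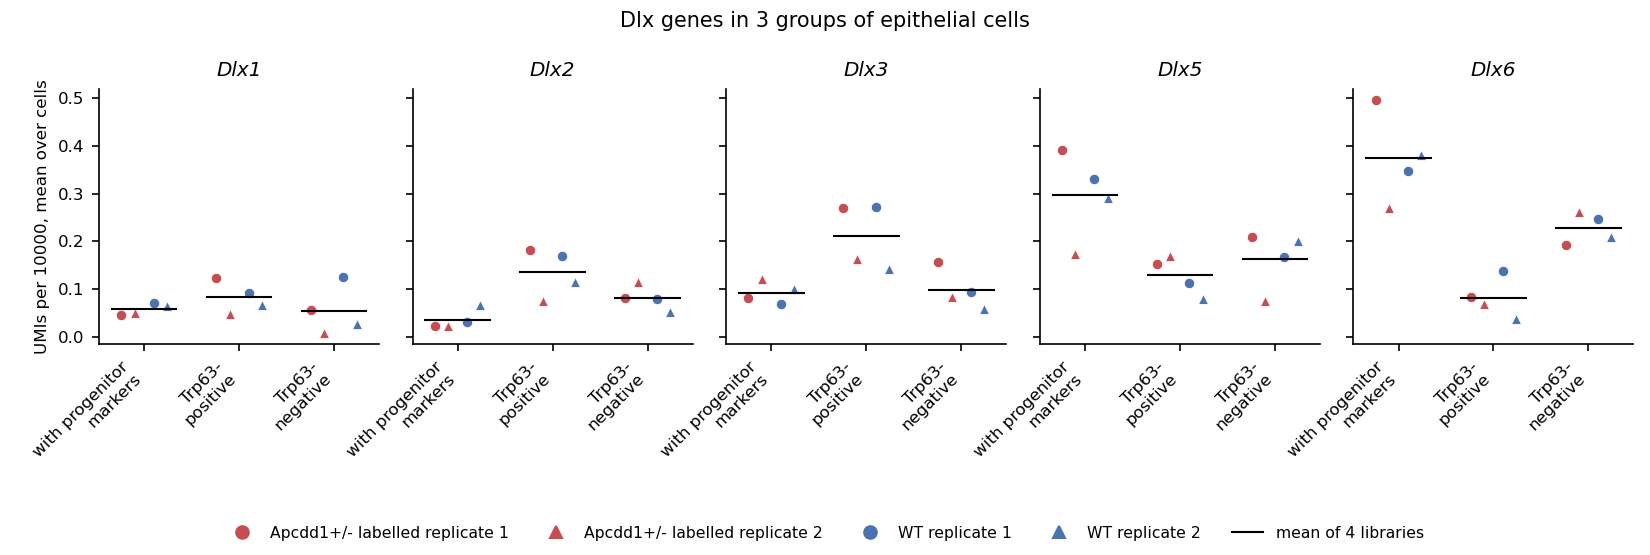
Level of each Dlx gene (UMIs per 10000) in cells with epithelium and progenitor markers together, Trp63-positive epithelium and Trp63-negative epithelium; points are the 4 libraries, coloured by labelled genotype, and lines are their means. Dlx5 and Dlx6 stand highest in the double-marked cells, and Dlx3 in Trp63-positive epithelium.

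Dlx genes were often seen in the same cell, whether they were neighbours or not. Over all kept cells Dlx6 had a UMI in 38.7% of 372 cells with Dlx5, against 0.6% of other cells, and Dlx2 in 36.3% of 738 cells with Dlx1, against 0.8%. Dlx1, on another chromosome, was found in 41.4% of the 372 cells with Dlx5, against 2.4% of other cells. Within arch mesenchyme Dlx2 was found in 46.8% of 171 Dlx1-positive cells, against 22.5% of the others. There 14 of 15 Dlx5-positive cells held Dlx1, against 157 of 245 others. In neurons, 35 of 62 Dlx1-positive cells held Dlx5, against 11 of 1111 others. Of those Dlx1-positive neurons 28 held the neighbour Dlx2, against 6 of the 1111 others. Dlx6 was found in 9 of 46 Dlx5-positive neurons, against 14 of 1127 others. In cells with epithelium and progenitor markers together, 58.1% of 105 Dlx5-positive cells held Dlx6, against 27.6% of the others. Dlx1 was in 6.67% of those Dlx5-positive cells and in 6.41% of the others, nearly the same share. These shares are descriptions that rise with depth in both genes.

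Across the 19 groups the gene most like Dlx1 in log2(mean CPM + 1) was Dlx2 (Pearson r = 0.90, n = 19 groups, 11696 genes considered), followed by Bivm (0.71) and Tfpt (0.69). After Dlx1, Dlx2 was most like Barx1 (0.77), which helps define the arch gate, and Surf6 (0.76). Dlx3 lay close to the epithelial genes Krt7 (0.99), Crb3 (0.98) and Cldn6 (0.98), of which Cldn6 is in the epithelium gate. Dlx5 and Dlx6 were most like each other (0.97), and next came Zmat4 (0.86) and Vwa2 (0.86) for Dlx5 and Vwa2 (0.90) and Dlx3 (0.90) for Dlx6. The groups share the same 4 libraries and differ in cell number and depth, so these values are descriptions.

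Between genotypes no member was called in any of the 4 groups or over all cells. Neither was any other gene by edgeR (0.00% of genes called in each). With 2 libraries per genotype, both libraries of a genotype readily lie above both of the other by chance. The share of all genes with such an order is not given here, so the orders below are descriptions. Unadjusted p lay under 0.05 for 293 of 8242 genes in arch mesenchyme, 227 of 11150 in neurons, 335 of 10119 in epithelium, 238 of 9199 in subpallium and 188 of 15966 over all cells; DESeq2 called 0 genes in each group and 3 over all cells.

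In arch mesenchyme the summed Dlx1 counts were 115 ± 9.13 CPM in Apcdd1+/- labelled libraries and 135 ± 9.06 CPM in WT libraries (SD, n = 2 each), a log2 difference of -0.18 (95% interval -0.63 to 0.26, adjusted p = 1.00, edgeR), with both Apcdd1+/- labelled libraries below both WT libraries. Dlx2 differed by log2 0.26 (-0.44 to 0.95). Dlx5 and Dlx6 were below the filter, with 5 and 3 UMIs in Apcdd1+/- labelled libraries, against 20 and 10 in WT libraries. In both genes the Apcdd1+/- labelled libraries lay below the WT libraries, and with no filter their adjusted p was 0.98 each (edgeR). These few UMIs came from Pou3f3-positive cells in all but 1 case, and the share of such cells was lower in Apcdd1+/- labelled libraries, as given above; their part in the result was not tested. Of 16 tested arch patterning genes 0 were called, with a median of -0.31 against 0.00 over all genes.

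In neurons the summed counts of Dlx1, Dlx2 and Dlx5 gave a higher CPM in both Apcdd1+/- labelled libraries than in both WT libraries. None of these differences passed the adjusted threshold, and such an order readily arises by chance, as said above. Dlx1 had 38.4 ± 2.58 CPM in Apcdd1+/- labelled libraries and 16.9 ± 15.4 CPM in WT libraries (SD, n = 2 each), a log2 difference of 1.15 (95% interval 0.01 to 2.28, adjusted p = 1.00, edgeR). For Dlx2 and Dlx5 the nearest libraries were almost level, at 4.20 and 4.55 CPM in Apcdd1+/- labelled replicate 2 and 4.18 and 4.47 CPM in WT replicate 1. In the level averaged over cells Dlx5 overlapped, at 0.0594 in Apcdd1+/- labelled replicate 2 and 0.0834 in WT replicate 1. Dlx2 differed by log2 1.56 (-0.08 to 3.20) and Dlx5 by 1.43 (-0.04 to 2.90). WT replicate 2 was the low library, and without it the differences of Dlx1, Dlx2 and Dlx5 were 0.46, 0.91 and 0.94, while without WT replicate 1 they were 2.74 (adjusted p = 0.0748), 3.21 and 2.38. Without Apcdd1+/- labelled replicate 1 they were 1.19, 0.64 and 0.49. With 1 more lineage marker they were 0.057, 0.82 and 0.72, and with neurons that also carry progenitor markers let in they were 0.46, 0.77 and 0.76. GABAergic cells made up 13.2 and 12.7% of neurons in Apcdd1+/- labelled libraries, against 10.51 and 7.69% in WT libraries, and their part in the result was not tested. Of 32 tested subpallial and GABAergic genes 0 were called in neurons, with a median of 0.06 against 0.01 over all genes.

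In epithelium the 5 genotype differences ran from log2 -0.18 (Dlx1, 95% interval -1.32 to 0.95) to 0.28 (Dlx5, -0.49 to 1.05), and the groups overlapped in each. Dlx3, the epithelial member, had 16.6 ± 9.42 CPM in Apcdd1+/- labelled libraries and 16.3 ± 7.04 CPM in WT libraries (SD, n = 2 each). Of 23 tested ectoderm and placode genes 0 were called (median -0.07 against -0.00). In subpallium Dlx1 differed by log2 -0.04 (-1.38 to 1.30), and 0 of 23 tested list genes were called (median -0.05 against 0.01). Over all cells the members differed by log2 -0.07 (Dlx1), 0.14 (Dlx2), -0.20 (Dlx3), -0.14 (Dlx5) and -0.07 (Dlx6). A test of whether the genotype difference varied among the 4 groups called no member; the unadjusted p were 0.168, 0.191, 0.556, 0.0239 and 0.269 for Dlx1, Dlx2, Dlx3, Dlx5 and Dlx6, and 2 of 11067 genes were called (edgeR).

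**Figure D5:**
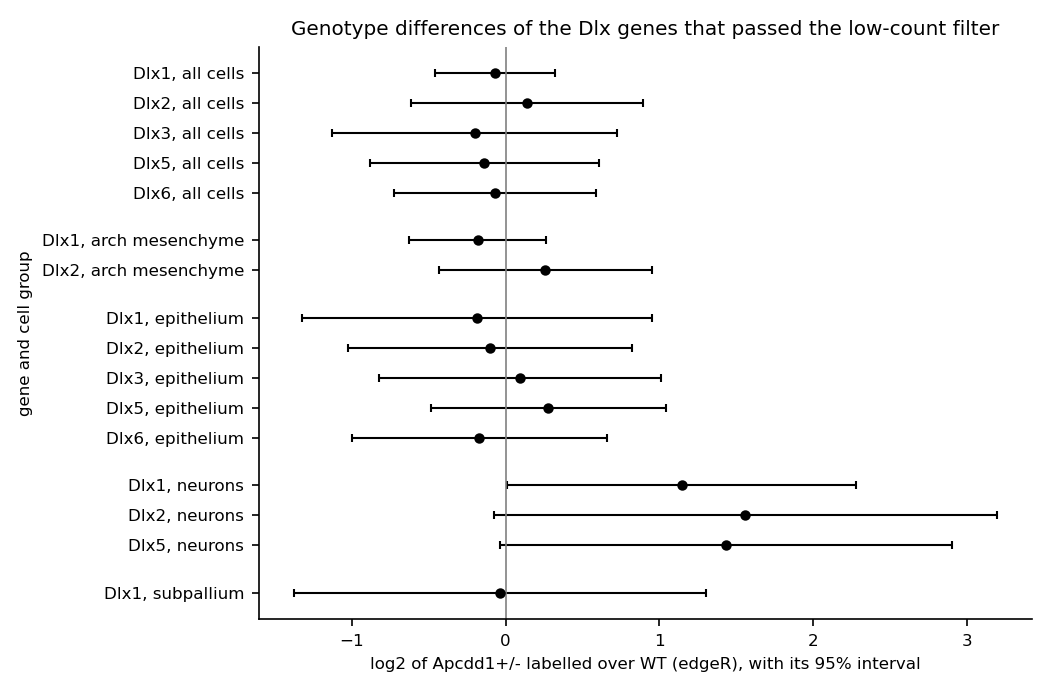
Log2 difference of Apcdd1+/- labelled over WT libraries (edgeR, 2 libraries each) with its 95% interval, for each Dlx gene that passed the filter on low counts, over all cells and in arch mesenchyme, epithelium, neurons and subpallium. Every interval but that of Dlx1 in neurons, 0.01 to 2.28, holds 0, and no adjusted p passed the threshold.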

How the data were processed

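E10.5 mouse heads were profiled by droplet single-cell RNA sequencing in 4 libraries. The authors deposited, per library, a matrix of raw UMI counts per gene and cell; the DNBelab C kit and software and MGISEQ-2000 sequencing are per the labels' protocols, PISA 0.12 per the file headers, and mm10 and Scanpy 1.9.1 per the submitters' processing notes. An aligner was not given in the sources used here. Columns of other samples numbered 0. The barcode list of the Apcdd1+/- labelled replicate 1 library holds 3994 of its 9735 cells; the matrix was used whole.

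Here cells with at least 500 genes and under 10% mitochondrial UMIs were kept. Lineages needed UMIs of at least 4 of 10 mesenchyme, 4 of 10 epithelium, 5 of 12 neuron or 3 of 9 neural progenitor markers, minimums set at troughs of the marker numbers after the files were read. The members, marker lists and gene lists were chosen with earlier results of these data known, and 4 comparisons were added after seeing the data: the Pou3f3 split, epithelium with progenitor markers, prethalamic-type against caudal progenitors, and cells with progenitor and neuron markers. UMIs were summed per library and group and tested with edgeR 4.0.16 (R 4.3.3; TMM scaling, filterByExpr, Benjamini-Hochberg, threshold 0.05), with the library as a block between groups. DESeq2 1.42.0, other scaling, no filter, all barcodes, stricter gates and left-out libraries were alternatives. The fits were also run on simulated counts, whose outcome is not given here. Changes were planted only in genes above a minimum CPM, and fits with no filter were not simulated. No doublet caller was run. Named genes were the members, up to 4 called list genes in each direction per comparison without those that define the groups, and the 3 genes most like each member. Genome positions are GENCODE vM21's; RefSeq's promoter table matched 2 of the 5 members. Cells are not replicates, and depth limits a level to a few UMIs in small groups. Some genes, among them markers that define groups, and 1 group of cells are not reported here.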

Additional observations from a re-analysis of the deposited data

Results flagged for a closer look

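Dlx3 in arch mesenchyme had a level of 0.00813 UMIs per 10000 in WT replicate 1 and 0 in the other 3 libraries, which stood out from them in a Dixon test; it rests on 1 UMI. Dlx6 in subpallium had a level of 0.00938 in WT replicate 2 and 0 in the other 3, which also stood out and also rests on 1 UMI. These were 2 of 19 sets of 4 libraries tested. A set with UMIs in only 1 library always passes this test, so the 2 flags say no more than the counts do.

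In neurons Dlx1 lay higher in both Apcdd1+/- labelled libraries than in both WT libraries, with a log2 difference of 1.15. In arch mesenchyme it lay lower in both, with a log2 difference of -0.18. With 2 libraries per genotype such orders readily arise by chance, and the share of all genes with them is not given here. The test of whether the genotype difference varied among the 4 groups gave Dlx1 an unadjusted p of 0.168 and an adjusted p of 1 (edgeR), so the difference between the groups did not pass.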

How the results depend on the processing

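Of the 340 recomputed log2 differences of members that had passed the threshold, 310 still passed in the same direction, 30 kept their direction and missed it, and 0 reversed. Of the 298 that had not passed, 252 stayed on their side in the same direction, 17 passed in the same direction and 29 changed sign.

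DESeq2 called fewer genes than edgeR between groups of cells, at 615 (arch against frontonasal mesenchyme), 503 (subpallium against pallium), 28 (Nkx2-1 split), 354 (GABAergic against glutamatergic), 108 (Trp63 split), 80 (Pou3f3 split), 670 (epithelium with progenitor markers), 982 (prethalamic-type against caudal) and 1818 (progenitor and neuron markers against subpallium), against edgeR's 1293, 980, 60, 702, 304, 126, 1609, 1637 and 3250. Without the library block edgeR called 574, 439, 83 (Trp63 split), 24 (Pou3f3 split), 824, 928 and 2034, and with 1 more lineage marker the Pou3f3 split called 23. The cause was not tested.

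Leaving out 1 library at a time gave 806 to 1145 genes for arch against frontonasal mesenchyme (lowest without Apcdd1+/- labelled replicate 1), 592 to 821 for subpallium against pallium (lowest without WT replicate 1) and 26 to 52 for the Nkx2-1 split (lowest without Apcdd1+/- labelled replicate 1). It gave 349 to 851 for GABAergic against glutamatergic neurons (349 and 463 without Apcdd1+/- labelled replicates 2 and 1), 153 to 243 for the Trp63 split (153 and 169 without Apcdd1+/- labelled replicate 1 and WT replicate 1), 54 to 99 for the Pou3f3 split (lowest without Apcdd1+/- labelled replicate 2) and 1049 to 1404 for epithelium with progenitor markers (lowest without Apcdd1+/- labelled replicate 1). With 3 libraries left, fewer samples enter each fit.

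Between genotypes edgeR called 0 genes in the planned fits. With no filter on low counts it called 6 in arch mesenchyme, 17 in neurons, 5 in epithelium, 1 in subpallium and 3 over all cells, with 1 more lineage marker 3 in arch mesenchyme, and DESeq2 called 3 over all cells. Leaving out 1 library gave 0 to 14 in arch mesenchyme, 0 to 90 in neurons, 3 to 29 in epithelium, 0 to 15 in subpallium and 0 to 222 over all cells, each time most without Apcdd1+/- labelled replicate 2; the lone library of a genotype is then assumed to vary like the others. The replicate block, which pairs libraries of the same number, called 8, 47, 11 and 5 genes in arch mesenchyme, neurons, epithelium and all cells, and it called Dlx1 in neurons (log2 1.34, adjusted p = 0.0012, edgeR). Nothing in the labels makes the numbers a pairing: with 2 pairs, same-numbered libraries correlated by 0.018 to 0.183 in their deviations, and the libraries share only a number. Under the block Dlx1 in subpallium lay at 0.19 and Dlx3 in epithelium at -0.0016, both of the other sign.

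Genotype differences of other sign, none of them called, were Dlx1 in subpallium at 0.87 and Dlx3 in epithelium at -0.050 with 1 more lineage marker, and Dlx5 in epithelium at -0.088 with progenitor markers allowed. Leaving out 1 library gave log2 values from -0.37 to 0.63 for Dlx2 in arch mesenchyme and -1.08 to 2.29 for Dlx1 in subpallium. In epithelium it gave -0.94 to 0.31 for Dlx1, -0.76 to 0.25 for Dlx2, -0.74 to 0.65 for Dlx3 and -0.49 to 0.25 for Dlx6. Over all cells it gave -0.24 to 0.076 for Dlx1, -0.43 to 0.51 for Dlx2, -0.86 to 0.19 for Dlx3, -0.65 to 0.21 for Dlx5 and -0.39 to 0.17 for Dlx6. Uncalled differences between groups also changed sign: Dlx5 from -0.58 to 1.13 and Dlx6 from -0.58 to 1.64 in arch mesenchyme against neurons (Dlx6 was called at the top value, without Apcdd1+/- labelled replicate 1, adjusted p = 0.0494), and Dlx2 from -0.23 to 0.89 in neurons against subpallium. Dlx1 in the Nkx2-1 split ran from -0.063 to 1.23, and was -0.12 with 1 more lineage marker. Dlx2 in progenitor and neuron markers against subpallium ran from -0.060 to 0.84, and was -0.10 with 1 more lineage marker.

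Shares of cells with a UMI fell when cells were thinned to 4000 UMIs, for Dlx1 in arch mesenchyme to 35.3% from a mean of 66.9% over libraries. The planned comparison of Hand2-gated with Pou3f3-gated arch mesenchyme could not be fitted, since 0 arch cells held Hand2.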
